A study of Mus musculus with 20 samples.

Results

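The genes described here are 6 matrix metalloproteinases and the 4 tissue inhibitors of metalloproteinases, in the brain of WT and miR-324-null mice. They were chosen by name: the estimated counts and TPM values (transcript abundance scaled for length and library) of all transcripts annotated to Mmp2, Mmp9, Mmp14, Mmp15, Mmp16, Mmp17, Timp1, Timp2, Timp3 and Timp4 were added up per gene in each of the 20 samples. These are 10 of 35580 annotated genes, with 35 of the 115270 transcripts quantified.

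Matrix metalloproteinases are zinc-dependent endopeptidases that cut proteins of the extracellular matrix and of the cell surface. Mmp2 and Mmp9 encode the secreted gelatinases. Mmp14, Mmp15 and Mmp16 encode proteases held in the membrane by a transmembrane segment, and Mmp17 encodes a protease held there by a glycolipid anchor. All are made as inactive precursors. Each TIMP protein blocks the active site of a protease through its amino-terminal end. TIMP2 has a further role, since together with the product of Mmp14 it takes part in the activation of the Mmp2 precursor, and TIMP3 is bound to the extracellular matrix. In the adult brain these enzymes are known for the remodelling of synapses, of the matrix around neurons and of the blood-brain barrier, and Mmp9 is induced by neuronal activity.

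The study compared hippocampus and cerebral cortex, called neocortex here, from WT and miR-324-null C57BL/6J mice aged 13.5 months, with 5 samples in each of the 4 groups. The null mice carry a CRISPR/Cas9 deletion at Mir324 in every cell. Founders were of mixed C57BL/6 and CBA/ca background and were backcrossed to C57BL/6J, and separate WT and null lines were then bred, so that the line and the genotype cannot be told apart. The mice were untreated and, per the study's account of its results, male. No source states whether samples with the same replicate number came from the same mouse, and p-values measure the spread between these samples. The miRNA itself was not analysed here, so the genotype of each sample rests on its label.

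MicroRNAs act through the pairing of their seed, bases 2 to 8, with messenger RNA, mostly in the 3′ untranslated region (3′UTR). The mature sequences of both arms of miR-324, the RNA that the null mice lack, are shown from RefSeq (GRCm38) with the seed in capitals. The 5p arm lies at chr11:70012060-70012082 and the 3p arm at chr11:70012095-70012114, both on the plus strand.
miR-324-5p: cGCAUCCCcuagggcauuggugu
miR-324-3p: cCACUGCCccaggugcugcu

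The complements of these seeds, GGGATGC for the 5p arm and GGCAGTG for the 3p arm, were searched on the transcript strand in the annotated 3′UTR of the leading coding transcript of each of the 10 genes. These letters occurred once for the 5p arm, in Mmp2, and once each for the 3p arm in Mmp2, Mmp15, Mmp17 and Timp4. This search found no match in the 3′UTR of Mmp9, Mmp14, Mmp16, Timp1, Timp2 or Timp3. The study describes distinct forms of miR-324-3p whose seeds differ, and only the 3p seed shown here was searched. The 5 matches are shown with their surroundings, the match in capitals, because Mmp2 is the only one of the 10 genes with both. They lie at chr8:92852868-92852896 and chr8:92853032-92853060 for Mmp2, at chr8:95373323-95373351 for Mmp15, at chr5:129606556-129606584 for Mmp17, all on the plus strand, and at chr6:115244931-115244959 on the minus strand for Timp4.
Mmp2, 5p seed: gcccaccctagGGGATGCttggatatttg
Mmp2, 3p seed: gcctggcatggGGCAGTGgggtacaggtg
Mmp15, 3p seed: agaggtccctgGGCAGTGtgtgtgattgt
Mmp17, 3p seed: ggcatcctgagGGCAGTGctagccttgcg
Timp4, 3p seed: tggaaggctctGGCAGTGagactccaagt
A match of this length is common. Among the longest annotated 3′UTRs of all coding genes, of those whose length was within 20% of that of Mmp2 (755 bases), 3.599% held the 5p match and 8.04% the 3p match. The corresponding shares with the 3p match were 22.4% for the length of Mmp15 (2560 bases), 34.8% for Mmp17 (4561 bases) and 34.4% for Timp4 (4394 bases). A match is a description of the letters and says nothing about pairing in these tissues.

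Each family is also shown by a short coding stretch that its members share. In the metalloproteinases, 30 coding bases at the zinc-binding site of the catalytic domain are shown, with the codons of its first 2 histidines and of the catalytic glutamate in capitals. The codon of its last histidine follows directly after the stretch and is not shown. The stretches lie, each within 1 exon on the plus strand (GRCm38), at chr8:92839279-92839308 in Mmp2, chr2:164951133-164951162 in Mmp9, chr14:54437627-54437656 in Mmp14, chr8:95368585-95368614 in Mmp15, chr4:18051748-18051777 in Mmp16 and chr5:129596597-129596626 in Mmp17.
Mmp2: CATGAGttcggcCATgccatggggctggaa
Mmp9: CACGAGttcggcCATgcactgggcttagat
Mmp14: CATGAGttggggCATgccctaggcctggaa
Mmp15: CATGAGctgggcCATgccctggggctagaa
Mmp16: CATGAGctgggaCATgctctaggactggaa
Mmp17: CATGAGtttggtCATgccattggtctgagc
Across the 6 genes the closest pairs, Mmp2 with Mmp15 and Mmp14 with Mmp16, shared 26 of 30 bases, and Mmp9 with Mmp17 shared 18 of 30.

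In the inhibitors, the first 30 coding bases of the mature protein hold the cysteine codons, in capitals, through which a TIMP occupies the active site. They lie in coding exons at chrX:20871111-20871140 in Timp1 and chr10:86300923-86300952 in Timp3 on the plus strand, and at chr11:118354983-118355012 in Timp2 and chr6:115251662-115251691 in Timp4 on the minus strand.
Timp1: TGTagcTGTgccccaccccacccacagaca
Timp2: TGCagcTGCtccccggtgcacccgcaacag
Timp3: TGCacaTGCtctcccagccatccccaggat
Timp4: TGCagcTGTgcgcctgcgcacccccagcag
Timp2 and Timp4 shared 23 of these 30 bases, and Timp1 and Timp3, the least alike, shared 16.

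Depth ranged from 12752439 to 19617765 estimated counts, with 4 of the 5 null neocortex samples deeper than all samples of the other 3 groups, whose highest was 16239257. Of the counts, at least 99.4% per sample belonged to transcripts matched to a gene. The labelled tissues carried their markers, since 9 of 10 hippocampal markers were higher and 8 of 10 neocortical markers lower in WT hippocampus than in WT neocortex. Some libraries stood apart. The summed level of 10 choroid plexus markers was 4617 CPM (counts scaled to library size) in WT hippocampus 3, 3940 in miR-324-null hippocampus 5 and 824.5 in miR-324-null neocortex 2, against 17.7 to 148.0 in the other 17 samples. Hippocampal markers summed to 314.6 to 378.2 CPM in 4 of the 5 null neocortex samples, against 215.9 to 250.4 in WT neocortex and 217.0 in null neocortex 5. Striatal projection neuron markers ranged from 397.6 to 811.5 CPM in null neocortex and from 295.6 to 588.1 in WT neocortex. The part of these differences in the results was not tested. The calls between tissues and the values of Mmp14 are given with and without the libraries of highest choroid plexus marker level. No set of libraries was left out by its hippocampal or striatal markers.

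The inhibitors were the more abundant family. In TPM, which corrects for transcript length and so allows genes to be compared, the 10 genes spanned from 125.5 for Timp2 to 0.705 for Timp1 as means over the 20 samples. Timp2 stood first, at 125.5 ± 27.4 TPM (SD, n = 20), and ranged from 88.8 to 186.7. Mmp17 was second and the most abundant protease, at 57.9 ± 5.07 TPM with a range of 51.0 to 68.1. Timp3 followed at 36.7 ± 4.20 TPM and Timp4 at 16.6 ± 2.85 TPM. None of these 4 genes overlapped in range with the next gene in the order. Of the 15391 genes with enough counts over the 20 samples, 92.8% lay below Timp2 and 82.6% below Mmp17.

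The 3 transmembrane proteases formed a group of like level. Mmp14 had a mean of 8.02 ± 1.89 TPM, Mmp16 of 7.99 ± 1.44 TPM and Mmp15 of 6.15 ± 0.733 TPM. In these sums over all transcripts, Mmp14 exceeded Mmp16 in 10 of 20 samples, so their order cannot be given. Mmp16 exceeded Mmp15 in 19 of 20 although their ranges overlapped. The sums include non-coding transcripts. The leading coding transcripts averaged 5.06 TPM for Mmp16-201 and 5.85 TPM for Mmp15-201, the opposite order. A shorter coding transcript, Mmp16-204, averaged 0.855 TPM. Every value of Mmp15 lay above every value of Mmp2.

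The gelatinases and Timp1 were scarce. Mmp2, gelatinase A, had a mean of 2.14 ± 0.668 TPM from 24 to 62 counts per sample, and Mmp9, gelatinase B, had a mean of 1.47 ± 0.522 TPM from 10 to 32 counts. Mmp2 exceeded Mmp9 in 16 of 20 samples. Short transcripts with few counts held part of both sums. The leading coding transcripts averaged 1.31 TPM for Mmp2-201 and 0.577 TPM for Mmp9-201, a mean share of 44.5% for the latter. Mmp9-202, a retained intron of 462 bases, averaged 0.498 TPM from 1.21 counts. By its leading coding transcript alone, Mmp9 would not stand above the 0.705 TPM of Timp1. Timp1, an inhibitor known to be induced in reactive glia, had 0 to 9 counts per sample and a mean of 0.705 ± 0.349 TPM. It had 3 counts or fewer in 8 of 20 samples, and the library with none, WT hippocampus 4, allows a level of up to 0.235 CPM (3 counts, counting error only). CPM per kilobase of transcript gave the same order of all 10 genes. Its lengths were weighted by TPM, so the order had to agree and this is no separate check.

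**Figure D1:**
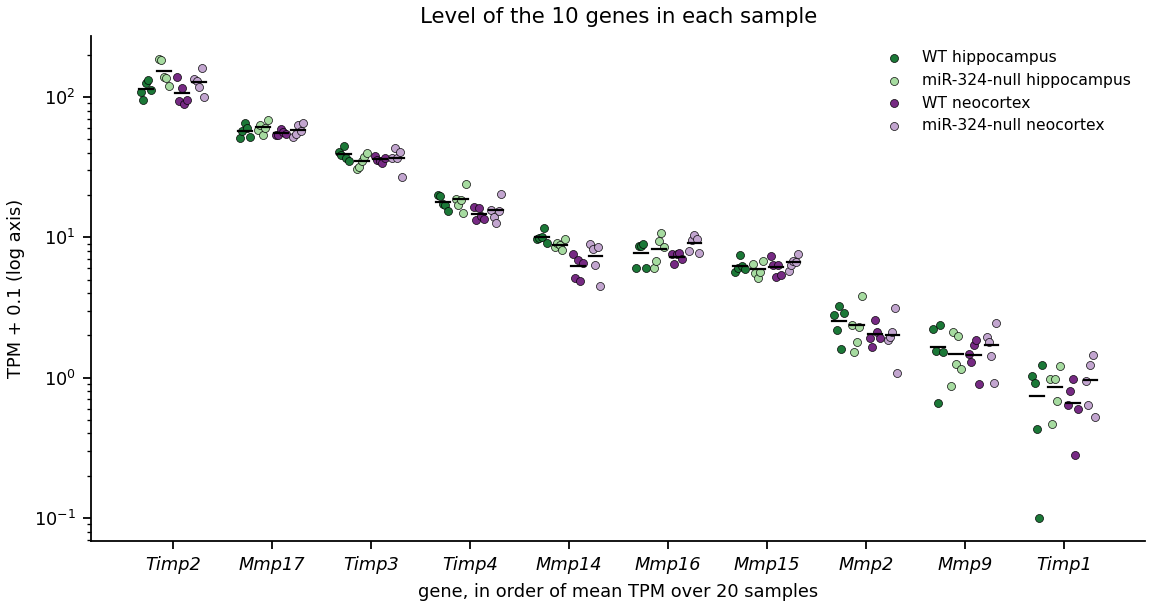
TPM + 0.1 on a log axis for the 10 genes in each of the 20 samples, with genes in order of mean TPM. Points are samples coloured by group, with 5 samples per group, and black lines are group means. The genes span from 125.5 TPM for Timp2 to 0.705 TPM for Timp1, and the 4 most abundant do not overlap with the next gene in the order.

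Summed over each family, the inhibitors reached 179.5 ± 27.8 TPM and the 6 proteases 83.7 ± 6.596 TPM (SD, n = 20), a ratio of 2.15 ± 0.321 that ranged from 1.66 to 2.88. One gene held most of each sum. Timp2 made up 69.4 ± 4.58% of inhibitor TPM, and Mmp17 made up 69.2 ± 2.44% of protease TPM. By group, the ratio of inhibitor to protease was 2.04 ± 0.153 in WT hippocampus, 2.39 ± 0.391 in null hippocampus, 2.02 ± 0.265 in WT neocortex and 2.15 ± 0.371 in null neocortex (n = 5 each), with overlapping ranges. These are levels of RNA, and the amount or activity of the proteins was not measured.

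Tissue was compared first, within each genotype, with edgeR, by quasi-likelihood, and the p-values were adjusted across every gene that entered the fit (Benjamini-Hochberg). In WT mice, 2 of the 9 genes that could be tested were higher in hippocampus than in neocortex and none was lower. They were Mmp14 and Timp4. Over all 14894 genes tested, 36.1% passed the same threshold, 18.1% as higher and 18% as lower in hippocampus, so 2 of 9 higher is close to the background. The median log2 fold change was 0.14 over the 9 genes and -0.00077 over all genes. Timp1 had too few counts to be tested in any comparison. In whole tissue, more cells of a type and more RNA per cell cannot be told apart.

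Mmp14, whose product is the main activator of the Mmp2 precursor at the cell surface, showed the largest difference. The gene spans chr14:54431612-54445364 on the plus strand. Its levels in WT hippocampus were 13.5, 12.9, 14.1, 13.2 and 12.6 CPM in replicates 1 to 5. In WT neocortex they were 9.11, 7.52, 8.22, 6.56 and 7.75 CPM. Every hippocampal sample lay above every neocortical one. The means were 13.3 ± 0.585 and 7.83 ± 0.934 CPM (SD, n = 5), a 1.69-fold difference (95% confidence interval 1.48 to 1.93) with a log2 fold change of 0.76 (SE 0.089) and an edgeR adjusted p of 1.74e-05. Without the library of highest choroid plexus marker level in this comparison, the log2 fold change was 0.74.

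Timp4, an inhibitor that is enriched in brain and heart, was 1.26-fold higher in WT hippocampus (95% interval 1.13 to 1.40). Replicates 1 to 5 had 40.1, 41.6, 35.4, 33.9 and 34.6 CPM in WT hippocampus and 30.7, 32.8, 26.8, 29.4 and 28.4 CPM in WT neocortex. The groups did not overlap, and the lowest hippocampal value exceeded the highest neocortical value by a small margin. The log2 fold change was 0.33 (SE 0.072) with an edgeR adjusted p of 0.00290, and 0.35 without the library of highest choroid plexus marker level. Timp4 is a gene of astrocytes, and of 10 astrocyte markers 6 were higher and 2 lower in WT hippocampus, with summed levels of 2646 to 3125 CPM against 2254 to 2531 CPM in WT neocortex. Over the 20 samples Timp4 had an r of 0.67 with the astrocyte sum, and of 0.17 within groups. The neocortical sum had -0.68 and 0.02, the striatal sum -0.70 and -0.22 and the hippocampal sum 0.62 and -0.43. The endothelial sum had -0.06 and 0.55 and the neuronal sum -0.53 and 0.37. The part of astrocyte or other cell content in the difference was not tested. Timp4, at chr6:115241892-115252205 on the minus strand, lies within Syn2, a gene of synaptic vesicles on the opposite strand, with which its exons share 90 of 5894 bases. Syn2 was also higher in WT hippocampus, by 0.61 on the log2 scale (adjusted p = 5.50e-06), and whether the quantification used strand is not given in the sources used here.

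The other 7 genes did not pass the test in WT mice. Timp3 had a log2 fold change of 0.15 (95% interval -0.0059 to 0.31), Mmp15 of 0.14, Timp2 of 0.13, Mmp16 of 0.11 and Mmp17 of 0.06. For Mmp2 the value was 0.21 (interval -0.19 to 0.60) and for Mmp9 it was -0.0092 (interval -0.46 to 0.44), so differences of about the size of that of Timp4 were not detectable at the depth of the gelatinases. Mmp17, the most abundant protease, stood at 219.1 ± 23.3 CPM in WT hippocampus and 211.1 ± 6.82 CPM in WT neocortex.

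**Figure D2:**
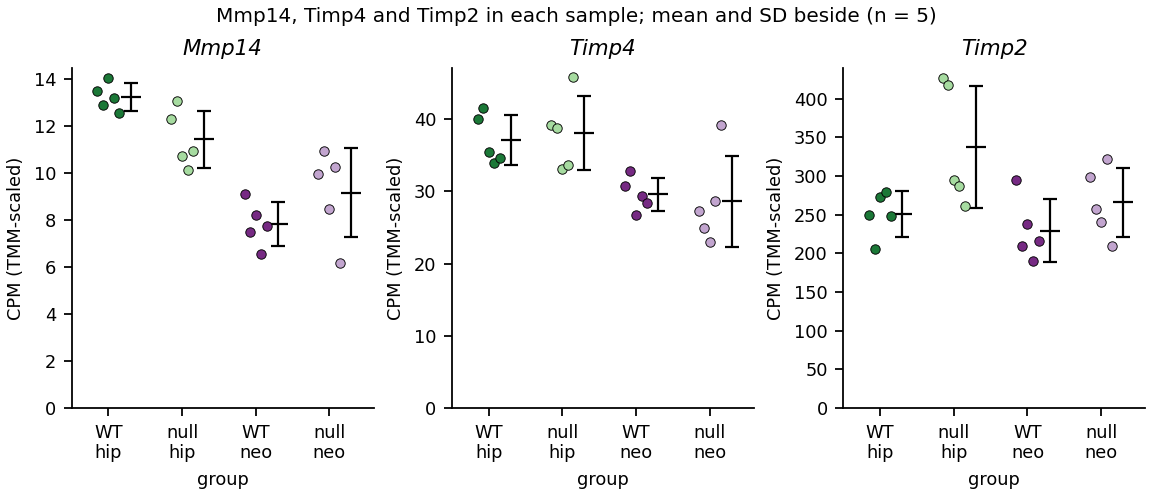
CPM, scaled by TMM, of Mmp14, Timp4 and Timp2 in each sample of the 4 groups (hip, hippocampus; neo, neocortex), with the mean and SD of 5 samples beside the points. Mmp14 and Timp4 do not overlap between WT hippocampus and WT neocortex, and Timp2 has 2 null hippocampus samples at 427.5 and 418.3 CPM.

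In miR-324-null mice, 1 of the 9 genes, Timp4, was higher in hippocampus than in neocortex, against 27.4% of all 15033 genes tested and 13.8% called as higher and 13.6% as lower. Its levels were 39.1, 38.8, 33.1, 33.6 and 45.9 CPM in null hippocampus and 27.3, 24.9, 23.0, 28.6 and 39.2 CPM in null neocortex. The groups overlapped through null neocortex 5, whose value exceeded 4 of the 5 hippocampal ones. The log2 fold change was 0.42 (SE 0.14, edgeR adjusted p = 0.0376). This call depended on single libraries, since it was lost in 7 of the 10 fits that left out 1 sample, with adjusted p up to 0.0913, and rose to a log2 fold change of 0.56 without null neocortex 5 (adjusted p = 0.00205). Without the libraries of highest choroid plexus marker level the value was 0.30 (adjusted p = 0.176). An offset for average transcript length also removed the call, at 0.33 and an adjusted p of 0.137 in edgeR.

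Mmp14 did not pass the threshold in null mice, with a log2 fold change of 0.33 (95% interval 0.019 to 0.64, adjusted p = 0.109). It had 12.3, 13.1, 10.76, 10.13 and 10.97 CPM in null hippocampus and 9.96, 10.96, 8.49, 10.3 and 6.18 CPM in null neocortex. These groups overlapped, with null neocortex 2 above 2 of the hippocampal samples. With all 20 samples in 1 fit the same difference passed, at an adjusted p of 0.0481. Without the libraries of highest choroid plexus marker level it was 0.42 (adjusted p = 0.0942), and without null neocortex 5 it was 0.21 (adjusted p = 0.165). The 4 null neocortex samples with the higher hippocampal marker sums, of 314.6 to 378.2 CPM, had 8.49 to 10.96 CPM of Mmp14, and null neocortex 5, with a sum of 217.0 CPM, had 6.18. Over the 20 samples Mmp14 had an r of 0.87 with this marker sum, and of 0.56 within groups, as a description of samples that share tissue and library. Other lists were stronger within groups. The neuronal sum had an r of -0.92 over the 20 samples and -0.69 within groups, and the meningeal fibroblast sum 0.72 and 0.68. The part of hippocampal or other cell content in the level of Mmp14 was not tested. Timp2 had a log2 fold change of 0.35 (interval 0.019 to 0.69, adjusted p = 0.110). For the remaining 6 genes the values lay between -0.05 for Mmp15 and 0.25 for Mmp9.

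The tissue difference of Mmp14 was smaller in null than in WT mice, and this was tested as the genotype-by-tissue interaction over all 20 samples. The interaction was -0.44 on the log2 scale (95% interval -0.80 to -0.081), with an unadjusted edgeR p of 0.0187 and an adjusted p of 0.856. None of the 9 genes passed, against 3 of 15391 genes in all (0.0195%), with 857 genes at an unadjusted p below 0.05 and 11 called by DESeq2. The value was -0.33 (adjusted p = 0.993) without the 3 libraries of highest choroid plexus marker level and -0.56 (adjusted p = 0.103) without null neocortex 5. A difference between the genotypes in the tissue pattern of Mmp14 was therefore not established in these samples.

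Genotype was then compared within each tissue, the question for which the mice were made. In hippocampus none of the 9 genes tested differed between miR-324-null and WT samples by edgeR, and none did by DESeq2. Over all 14796 genes, 17 (0.115%) passed the threshold, 0.0676% as higher and 0.0473% as lower, and 1635 had an unadjusted p below 0.05. Among the 9 genes 2 had an unadjusted p below 0.05, Timp2 and Mmp14. The median log2 fold change was 0.04 over the 9 genes.

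Timp2, the most abundant inhibitor, had the widest difference by value. Levels were 427.5, 418.3, 295.4, 287.7 and 261.1 CPM in null hippocampus and 249.7, 205.2, 273.4, 279.3 and 247.8 CPM in WT hippocampus. Null replicates 1 and 2 lay above all other samples of both groups, and null replicate 5 lay below 2 of the WT samples. The means were 338.0 ± 78.6 and 251.1 ± 29.2 CPM (SD, n = 5). The 1.35-fold difference (95% interval 1.09 to 1.66) had a log2 value of 0.43 (SE 0.14), an unadjusted p of 0.00960 and an adjusted p of 0.321 by edgeR. Across all alternative settings the adjusted p ranged from 0.125 to 0.576. The same 2 libraries had the lowest summed levels of hippocampal markers of their group, 677.7 and 690.9 CPM against 790.0 to 878.9 in the other 3, and the lowest of neocortical markers, 308.9 and 267.3 CPM against 345.7 to 586.6. The part of these differences in the level of Timp2 was not tested. Timp2 lies on the same chromosome as Mir324, at chr11:118301069-118355740 on the minus strand.

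Mmp14 was 0.86 times its WT level in null hippocampus (95% interval 0.76 to 0.98), at 11.4 ± 1.21 against 13.3 ± 0.585 CPM. Of the 5 null samples 4 lay below every WT sample and null replicate 2 lay within the WT range. The log2 fold change was -0.21 (SE 0.086, unadjusted p = 0.0283, edgeR adjusted p = 0.385), and -0.18 without the libraries of highest choroid plexus marker level. Timp3, which also had a negative value, stood at -0.17 (interval -0.35 to 0.0078, adjusted p = 0.466). Its exons share 1733 of 8144 bases with exons of Syn3 on the opposite strand. Group means were 6.22 to 8.88 CPM for Syn3 and 98.5 to 110.8 CPM for Timp3, and the effect of the overlap on the counts was not tested.

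The other 6 genes in hippocampus had log2 fold changes of -0.22 (Mmp2), 0.28 (Mmp9), 0.11 (Mmp17), 0.05 (Mmp16), 0.04 (Timp4) and -0.02 (Mmp15). The intervals show what could be seen at this depth. That of Mmp17 ran from 0.95-fold to 1.23-fold, and that of Timp4 from 0.89-fold to 1.18-fold. That of Mmp9 ran from 0.79-fold to 1.87-fold and that of Mmp2, the gene with both seed matches, from 0.61-fold to 1.21-fold. For Mmp9 the direction turned with the handling of transcript length, from 0.28 to -0.12 on the log2 scale in edgeR.

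In neocortex none of the 9 genes passed, against 47 of 14930 genes (0.315%, with 0.161% higher and 0.154% lower), with 1822 genes at an unadjusted p below 0.05 and 0 of the 9 genes called by DESeq2. Mmp15 and Mmp16, both transmembrane proteases, had an unadjusted p below 0.05. Mmp15 had 17.7, 18.2, 19.2, 19.0 and 19.6 CPM in null neocortex and 17.9, 17.4, 14.99, 15.5 and 16.7 CPM in WT neocortex. Only null replicate 1 lay within the WT range. The difference was 1.14-fold (95% interval 1.04 to 1.26), with a log2 value of 0.19 (SE 0.064), an unadjusted p of 0.0101 and an adjusted p of 0.255 by edgeR. With an offset for average transcript length it was 0.066 in edgeR (adjusted p = 0.882) and 0.065 in DESeq2 (adjusted p = 0.932).

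Mmp16 was 1.15-fold its WT level in null neocortex (interval 1.03 to 1.29), at 20.5 ± 1.92 against 17.9 ± 0.945 CPM, with an adjusted p of 0.292. Null neocortex 5 was the lowest or highest sample of its group in several of the 10 genes, though only its Mmp2 was singled out as far from the others. It had the lowest value of its group for Mmp2 (1.302 CPM), Mmp14 (6.18 CPM), Mmp16 (17.9 CPM), Timp2 (210.2 CPM) and Timp3 (72.7 CPM) and the highest for Timp4 (39.2 CPM) and Mmp17 (245.9 CPM). Without it 566 genes passed in neocortex in place of 47, still none of the 9, and the adjusted p of Mmp16 was 0.0615.

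Log2 fold changes of the other genes in null neocortex were 0.23 for Mmp14 (interval -0.086 to 0.55, and 0.35 with an adjusted p of 0.102 without null neocortex 5 and 0.16 without null neocortex 2), 0.22 for Timp2 (interval -0.054 to 0.49), 0.04 for Mmp17, 0.03 for Mmp9, -0.0034 for Mmp2, -0.01 for Timp3 and -0.04 for Timp4. Timp1, at 1 to 9 counts per neocortical sample, could not be compared.

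**Figure D3:**
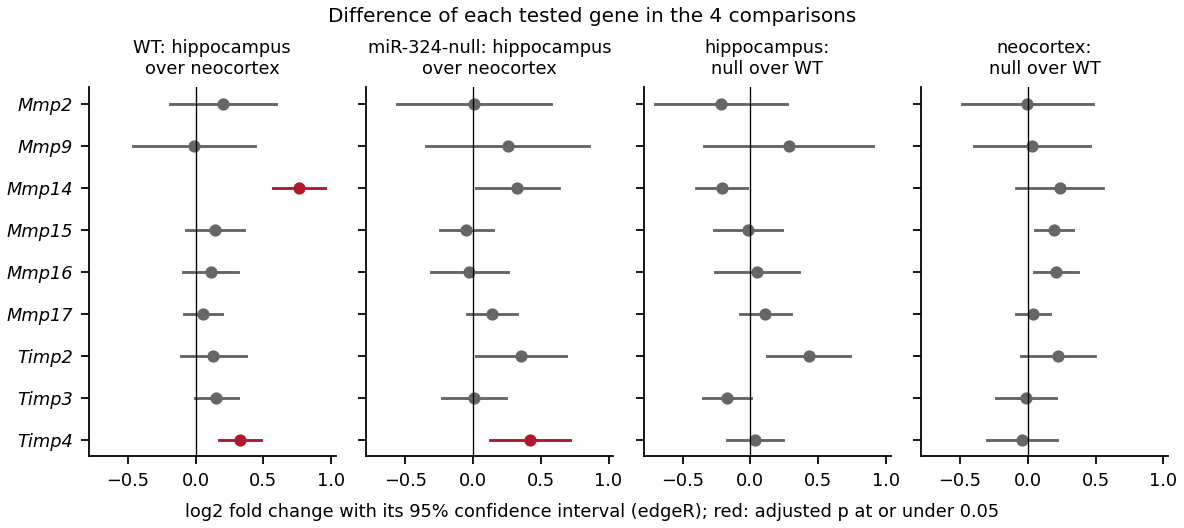
Log2 fold change (points) and 95% confidence interval (lines) of the 9 tested genes in the 4 comparisons, by edgeR. Red marks an adjusted p at or under 0.05, which holds for Mmp14 and Timp4 between WT tissues and for Timp4 between null tissues, and no gene is red in the 2 genotype comparisons.

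Of the 9 genes other than Timp1, 4 had a second transcript with a mean share of at least 10% of the gene's TPM, and the share of the leading transcript was compared in each of the 4 comparisons by exact two-sided permutation of the samples. None of the 16 tests passed after Benjamini-Hochberg adjustment. Mmp16-201, the full coding transcript, held 72.3 ± 8.02% of Mmp16 TPM in WT hippocampus, 58.7 ± 7.28% in null hippocampus, 63.3 ± 3.93% in WT neocortex and 60.9 ± 8.04% in null neocortex (SD, n = 5). The hippocampal difference of -13.7 percentage points had an exact p of 0.0238 and an adjusted p of 0.381, and the groups overlapped. Most of the rest fell to Mmp16-206, annotated as a target of nonsense-mediated decay. Its share was 15.5 ± 5.27% in WT hippocampus, with a range of 10.92 to 21.96%, and 29.7 ± 3.14% in null hippocampus, with a range of 24.95 to 32.06%. These groups did not overlap. The test of the second transcript of the 4 genes, added after the values were seen, gave this difference an exact permutation p of 0.00794, the smallest it can give, and an adjusted p of 0.127 over 16 tests, none of which passed. In neocortex the share was 27.1 ± 9.08% in WT and 23.3 ± 9.495% in null samples. Timp4 was divided between Timp4-201, of 5496 bases, and Timp4-202, of 945 bases. The longer one held 50.9 to 56.7% as group means, and the largest difference, between null tissues, was 5.32 percentage points (exact p = 0.214, adjusted p = 0.737). Shares of Mmp2 and Mmp9 rested on few counts and had SDs of 16.6 to 34.2 percentage points. Mmp14, Mmp15, Mmp17, Timp2 and Timp3 had at least 82.6% of their TPM in 1 coding transcript as means over the 20 samples. Timp1, at 0 to 9 counts, was left out of these tests because no share exists in the library at 0.

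**Figure D4:**
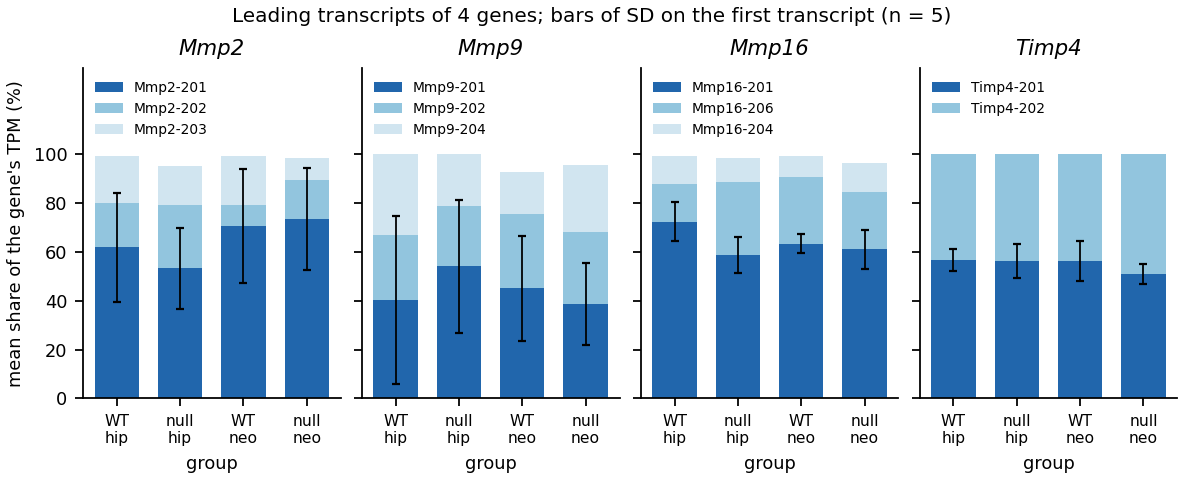
Mean share of the gene's TPM in percent held by up to 3 leading transcripts of Mmp2, Mmp9, Mmp16 and Timp4 in the 4 groups (hip, hippocampus; neo, neocortex). Error bars are the SD of the first transcript over 5 samples. Mmp16-201 holds 72.3% in WT hippocampus and 58.7% in null hippocampus, with an adjusted p of 0.381.

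Sample-to-sample variation was then compared among the 9 tested genes, as deviations of log2 CPM from the group means over the 20 samples. Of 36 pairs, 2 passed a two-sided permutation test within groups (100000 resamples, Benjamini-Hochberg over 36 pairs). The share that would pass among pairs of all genes was not computed. Genes outside the list reached a higher within-group r than these pairs, at 0.87 for Bmp6 with Mmp2 and 0.87 for Acss1 with Mmp14. Those genes were picked from 14544 as most alike. Mmp2 varied with Timp3 (Pearson r = 0.81, permutation p = 0.00067, adjusted p = 0.0121; Spearman rho = 0.68, permutation p = 0.00208, adjusted p = 0.0374). Without the 2 samples farthest from the median of Mmp2, r was 0.65, and without the 3 libraries of highest choroid plexus marker level it was 0.74. Over the same 20 samples, the summed hippocampal markers had a within-group r of 0.84 with Mmp2 and 0.78 with Timp3. The meningeal fibroblast markers had 0.76 and 0.78, the choroid plexus markers 0.62 and 0.58, and the mural cell markers 0.52 and 0.75. The microglial markers had 0.33 and 0.705 and the astrocyte markers 0.28 and 0.61. Negative values were -0.83 and -0.72 for the neuronal markers and -0.30 and -0.21 for the neocortical markers. What part these play in the relation was not tested.

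Mmp14 varied with Timp2, the pair whose products act together on the Mmp2 precursor (r = 0.74, permutation p = 0.00028, adjusted p = 0.0101; rho = 0.81, permutation p = 0.00036, adjusted p = 0.0130). Leaving out the 2 samples farthest from the median of Mmp14 gave an r of 0.87, and leaving out the 3 choroid plexus libraries gave 0.86. Null neocortex 5 was low in both genes, and null hippocampus 1 and 2 were high in both. Within groups the neuronal marker sum had an r of -0.69 with Mmp14 and -0.40 with Timp2. The meningeal fibroblast sum had 0.68 and 0.44, the endothelial sum -0.41 and -0.57 and the neocortical sum -0.47 and -0.46. The hippocampal sum had 0.56 and 0.12, the microglial sum 0.45 and 0.02 and the astrocyte sum 0.43 and 0.10. What part these play in the relation was not tested. Mmp15 with Mmp17 (r = 0.66) and Mmp9 with Mmp15 (r = -0.66) did not pass by Pearson's r, each with an adjusted p of 0.0780, and the latter passed by Spearman's rho (-0.72, permutation adjusted p = 0.0428).

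**Figure D5:**
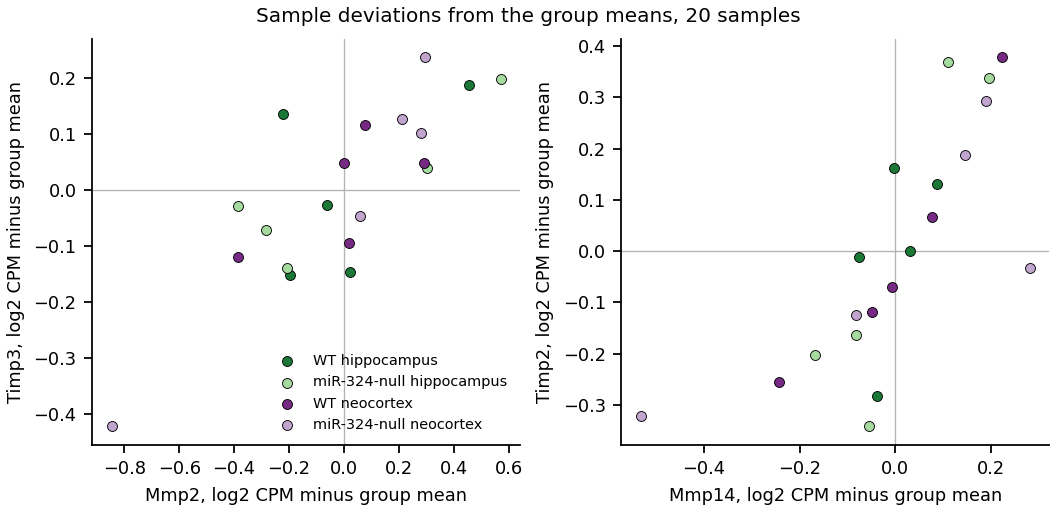
Deviation of each sample from its group mean in log2 CPM, for Timp3 against Mmp2 (left) and Timp2 against Mmp14 (right), in 20 samples coloured by group. The points rise together in both panels, with r of 0.81 and 0.74, and 1 null neocortex sample lies lowest in Mmp2, Timp3 and Mmp14.

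Among 14544 genes tested in all 4 comparisons, the genes whose log2 CPM was most like that of a member over the 20 samples are given as a description, since tissue, genotype and library are shared by all points. Mmp14 had the closest likeness, to Shisal1 (r = 0.95), Acss1 (r = 0.95) and Dchs1 (r = 0.94). Timp4 was most like Snph (r = 0.93), Gstm1 (r = 0.90) and Dnaja4 (r = 0.89). Timp2 was most like Oxtr, the oxytocin receptor (r = 0.89), Timp3 like Vcam1, an endothelial adhesion molecule (r = 0.89), Bmp6 (r = 0.88) and Csf1r, the microglial growth factor receptor (r = 0.85). Mmp2 was most like Slc13a4 (r = 0.86), Igf2 (r = 0.85) and Bmp6 (r = 0.85). For Mmp9, Mmp15, Mmp16 and Mmp17 the highest r were 0.79 (Cstad), 0.76 (Ext2), 0.85 (Xkr4) and 0.78 (Frzb).

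The wider pathway was described by 4 lists. Of 17 other metalloproteinase genes, 7 had enough counts to be tested between WT tissues. The list had 2 genes higher in WT hippocampus and none lower, Mmp19 (log2 fold change 1.05, adjusted p = 0.0244) and Mmp24 (0.19, adjusted p = 0.0169), the latter a neuronal membrane protease at 49.7 against 43.7 CPM. Higher calls made up 18.1% of all genes tested there, so 2 of 7 is not far from the background. In null tissues none of 6 tested passed, against 27.4% of all genes.

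Of 21 genes that activate, bind or clear metalloproteinases, 7 were higher and 4 lower among 17 tested between WT tissues, and 4 were higher and 5 lower among 19 tested between null tissues. Over all genes the shares were 18.1% higher and 18% lower in WT and 13.8% and 13.6% in null mice. Cd44, a cell-surface anchor of Mmp9 and Mmp14, was higher in WT hippocampus by 1.58 on the log2 scale. A2m, a general protease inhibitor, was higher by 1.49 in WT and 1.26 in null mice. The integrin genes Itgav and Itgb3 were lower in hippocampus in both genotypes, Itgav by -1.12 and -1.25 and Itgb3 by -0.92 and -0.75. Thbs2, whose product is known to take part in clearing Mmp2, was lower in null hippocampus (-0.75).

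Of 23 ADAM and ADAMTS genes, a related family of metalloproteases partly inhibited by TIMP3, 22 were tested, with 7 higher and 7 lower between WT tissues and 4 higher and 8 lower between null tissues, beside the same shares of 18.1% and 18% and of 13.8% and 13.6% over all genes. Adam33 was lower in hippocampus (log2 -3.51 in WT and -2.81 in null mice) and Adamts9 higher (1.85 and 1.56). Adamts18 was lower in both genotypes (-1.60 and -1.11), Adam12 was higher in WT hippocampus (0.86) and Adamts5, which cuts aggrecan, lower in null hippocampus (-0.65).

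Of 24 matrix and adhesion genes whose products metalloproteinases can cut or bind, all 24 were tested, with 7 higher and 1 lower between WT tissues and 3 higher and 2 lower between null tissues. In total 8 of 24 were called in WT mice against 36.1% of all genes, and 5 of 24 in null mice against 27.4%, so both are near or below the background. Lamb1, a laminin chain, was higher in hippocampus by 1.87 in WT and 1.45 in null mice. Icam5, a dendritic adhesion molecule cut by metalloproteinases, was higher by 0.90 and 0.75, and Sparc by 0.75 and 0.68. Tnc, encoding tenascin-C, was higher in WT hippocampus (1.49), and Ncan, encoding neurocan, was lower in null hippocampus (-0.24). In the 2 genotype comparisons and the interaction, none of the tested genes of these 4 lists passed, against 0.115%, 0.315% and 0.0195% of all genes.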

How the data were processed

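RNA was sequenced from the hippocampus and neocortex of 5 WT and 5 miR-324-null mice per tissue (TruSeq Stranded mRNA, NextSeq 500). Per the study's methods, the authors pseudo-aligned reads with kallisto to the mouse GRCm38 transcriptome (release 92). The labels name GRCh38, but the transcript identifiers are those of mouse. The authors deposited estimated counts and TPM per transcript, 1 table per sample. Whether strand was used, and the kallisto version, are not given in the sources used here.

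Of 115270 transcripts, 113580 matched GENCODE M21 (GRCm38) by identifier and were summed to 35580 genes, and the other 1690 were left out. Estimated counts were rounded and tested with edgeR 4.0.16 in R 4.3.3 (TMM scaling, filterByExpr, quasi-likelihood test), each comparison on its own 10 samples and the interaction on all 20, with Benjamini-Hochberg adjustment over all genes tested and a threshold of 0.05. The script was first tested on simulated data. CPM are TMM-scaled. Log2 CPM used a prior count of 2. Confidence intervals are 95%. Transcript shares and pairs of genes were tested by permutation of samples with scipy 1.17.1. Reads were not counted by molecular identifiers, so counting limits cover counting error only.

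Alternatives were DESeq2 1.42.0, its size factors, other count filters, offsets for average transcript length, 1 fit of all samples, a replicate block, and leaving out each sample. The study's methods name tximport and DESeq2 and state no length offset, and edgeR on the deposited counts was used as the main test. All 10 members were named, and of each pathway list at most 4 called genes of largest change per comparison. The members, lists and tests were chosen with earlier results of these data known. Samples were grouped by their labels, and all 20 were used. Deviations of same-numbered hippocampal and neocortical samples had correlations of -0.102 to 0.101 in WT and 0.0165 to 0.177 in null mice. Of 5 pairs per genotype, 1 in WT and 3 in null mice were over 0.1. Among 5 candidates in the other tissue, 5 of 10 WT and 7 of 10 null samples deviated most like that of their own number. Whether the numbers pair samples is not settled by this. If they do, samples of the 2 tissues are not independent. The main fits, the interaction and the tests of gene pairs took all samples as independent, and the replicate block is given as an alternative.

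Marker lists of 8 to 10 genes were summed in CPM. Between WT tissues, lists not described with the results gave 1 of 10 endothelial and 1 of 10 mural markers lower, 2 of 10 microglial, 4 of 8 oligodendrocyte precursor, 3 of 10 meningeal and 6 of 7 tested choroid plexus markers higher, 5 of 10 neuronal and 4 of 10 striatal markers lower, and 0 of 10 oligodendrocyte markers called.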

Additional observations from a re-analysis of the deposited data

Results flagged for a closer look

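Each of the 10 genes was checked in each of the 4 groups for a sample far from the others, 40 sets of 5 values. One value was singled out, that of Mmp2 in miR-324-null neocortex 5, at 1.302 CPM against 2.55 to 3.03 CPM in the other 4 samples of its group. The gap to the nearest sample was 0.724 of the whole range, above the critical value of 0.71. Chance alone singles out about 1 in 20 such sets. The same library was lowest of its group in Mmp14, Mmp16, Timp2 and Timp3.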

How the results depend on the processing

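All 20 settings of the WT tissue comparison called the same number of the 10 genes (2), and the genotype comparisons and the interaction called 0 in each setting run. Between null tissues the count of 1 fell to 0 with either length offset and without the libraries of highest choroid plexus marker level. The latter setting was chosen after seeing the data. The count rose to 2 with all 20 samples in 1 fit, and ranged from 0 to 1 when 1 sample was left out. It was 0 without null hippocampus 1, 2 or 5 or null neocortex 1, 2, 3 or 4. The cause was not tested. No transcript share passed in any setting.

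Every change of direction concerned a log2 fold change that did not pass the test. With transcript length offsets (edgeR, then DESeq2), Mmp9 became 0.16 and 0.19 between WT tissues, -0.14 and -0.15 between null tissues, -0.12 and -0.15 for genotype in hippocampus and -0.32 and -0.34 for the interaction, and Timp4 became 0.053 and 0.051 for genotype in neocortex. The choroid plexus setting left out only those of the 3 libraries that were in each comparison. Between WT tissues and for genotype in neocortex this was 1 library, so that fit is also among those with 1 sample left out. In this setting, values turned for genotype in hippocampus for Mmp15 (0.024) and Timp4 (-0.059). Timp4 also turned for genotype in neocortex (0.0059) and the interaction (-0.059). The same held for Mmp2 between null tissues (-0.10) and Mmp9 between WT tissues (0.066). Between null tissues Mmp2 was -0.0041 with no filter on low counts, -0.00040 by DESeq2 and -0.00089 with all samples in 1 fit, and Timp3 was -0.0042 with no filter, -0.00028 with at least 10 counts in every sample, -0.0026 in DESeq2 with length offset and -0.00043 in 1 fit.

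With 1 sample left out, ranges that crossed 0 were, for genotype in hippocampus, -0.069 to 0.078 (Mmp15), -0.054 to 0.13 (Mmp16) and -0.041 to 0.084 (Timp4). For genotype in neocortex they were -0.014 to 0.066 (Mmp17), -0.097 to 0.17 (Mmp2), -0.080 to 0.091 (Mmp9), -0.072 to 0.084 (Timp3) and -0.18 to 0.026 (Timp4). Between null tissues they were -0.10 to 0.012 (Mmp15), -0.14 to 0.054 (Mmp16), -0.17 to 0.11 (Mmp2) and -0.084 to 0.067 (Timp3), and between WT tissues -0.12 to 0.066 (Mmp9).

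Counts over all genes moved more. In hippocampus the 17 called for genotype became 9 with at least 10 counts in every sample, 139 by DESeq2, 85 in DESeq2 with length offset, 83 in 1 fit and 10 to 31 with 1 sample left out (31 without null hippocampus 5). In neocortex the 47 became 26, 240, 184, 30 with length offset in edgeR, and 27 to 566 (566 without null neocortex 5). The 3 of the interaction became 11 by DESeq2, 1 with length offset in edgeR, 1 without the choroid plexus libraries and 1 to 20 with 1 sample left out (20 without null neocortex 5). Under the replicate block the counts over all genes were 5044 and 4041 between WT and null tissues, 4 and 30 for genotype in hippocampus and neocortex and 0 for the interaction, and the members called were 2, 1, 0, 0 and 0. Pairing by number is not stated in the sources used here. Each sample had 5 candidates in the other tissue, and 5 of 10 WT and 7 of 10 null samples deviated most like that of their own number. The block changed no call of a member, and Timp4 between null tissues was 0.43 with it (adjusted p = 0.0042). Depth limited Timp1, with 0 to 9 counts, and the gelatinases.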
